A study of Mus musculus with 2 samples.

Results

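The 38 genes described here mark B lymphocytes or carry signals inside them, and they were followed on 2 mouse expression arrays made from sorted CD4+ T cells. They were found by gene name among the noncontrol probes of both scanner files, where 24325 genes were named. All 38 were on the array, as 62 spots of 53 distinct probes: 25 genes had 1 probe, 11 had 2 and 2 had 3. Of the genes, 22 were grouped as B-cell-restricted and 16 as shared with other leukocytes, from textbook knowledge of where they are used. Faim3 and Igj are the array's older names for Fcmr and Jchain.

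The co-culture combined naive splenocytes (1250 per μL) with an equal number of splenocytes already exposed to the bacterial superantigen TSST-1 at 0.1 μg/mL, which the labels call anergic. The naive-only culture held naive splenocytes by themselves at 2500 per μL. All cells came from female OVA-TCR-Tg mice, which carry a transgenic T cell receptor for ovalbumin (OVA), and both cultures received OVA at 0.1 mg/mL for 24 h before CD4+ T cells were sorted. From the labels it is not known whether the sort kept naive and pre-stimulated cells apart, nor how many mice gave the spleens. With 1 RNA sample and 1 array per culture there was no replicate check on any value, and no test was made.

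A B cell senses antigen through surface immunoglobulin bound to CD79A and CD79B, whose tails are phosphorylated by the kinases LYN and BLK. SYK then docks, and with the adaptor BLNK it activates BTK and phospholipase C gamma 2, while coreceptors such as CR2 raise the signal and inhibitory receptors such as CD22 and CD72 damp it. PAX5 and EBF1 hold the B cell programme in place, and in the spleen B cells also present antigen to CD4+ T cells and receive help through CD40. A sorted CD4+ T cell sample is not a usual source of transcripts such as Ms4a1 or Cd79a.

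Transcripts of T cell genes were looked at first. All 19 T cell marker genes were above background on both arrays, among them Cd3e, which encodes a signalling chain of the T cell receptor (signal 26948 in the co-culture and 20732.5 in the naive-only culture, in intensity units), and Cd4 itself (17944 in the co-culture and 13954 in the naive-only culture). Cd3e differed by 0.37 and Cd4 by 0.35, where each difference is log2 of the scaled signal in the co-culture minus that in the naive-only culture, and 1 is 2-fold. Splenocytes that were not sorted also hold T cells, so these values are no check on the sort or its purity. Transcripts of B cell genes were measured in the same samples. With RNA from a sorted population, fewer cells of a type and less RNA per cell cannot be told apart.

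On both arrays, 31 of the 38 genes were called well above background by the scanner software. At least 2-fold lower in the co-culture were 20 of these 31, and 10 were at least 4-fold lower. Only Faim3 was at least 2-fold higher, and the remaining 10 lay within 2-fold. Over the 13009 genes of the whole array that were measured in both cultures, 5.19% were at least 2-fold lower, 1.28% at least 4-fold lower and 8.26% at least 2-fold higher. The median difference of the 31 genes was -1.54, or 2.92-fold lower, against a median of -0.04 over all measured genes, whose interquartile range was -0.37 to 0.34. Another 5 genes (Fcrla, Fcrl1, Blk, Lyn and Pax5) were above background on the naive-only array alone, as were 5.7% of the 14572 genes above background on either array. Cd180 and Pik3ap1 were above background on neither array. No gene of the set was above background in the co-culture alone. The share of all genes called so was not counted, so this absence is not read as a feature of the set.

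**Figure D1:**
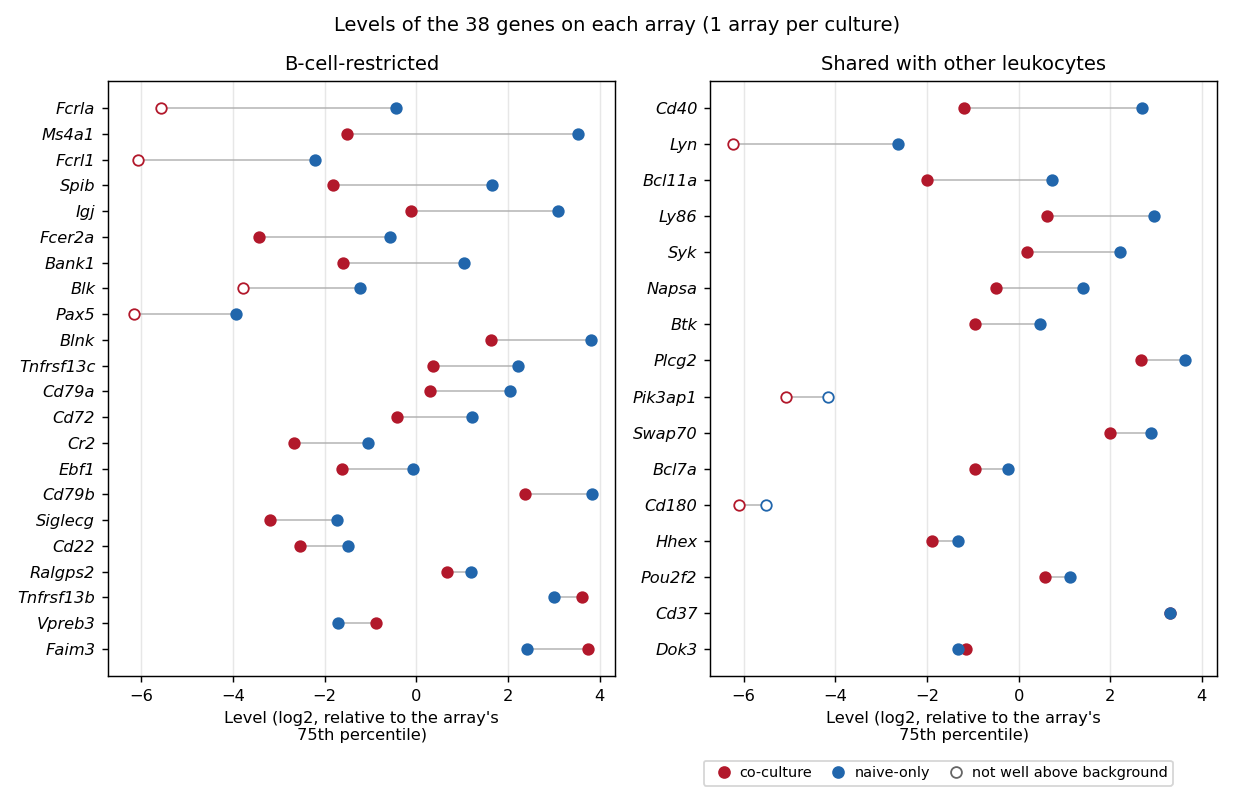
Level of each of the 38 genes on the co-culture array (red) and the naive-only array (blue), in log2 units from the 75th percentile of that array, with open circles for values not well above background. The co-culture point lies left of the naive-only point for all genes but Cd37, where both coincide, and Dok3, Tnfrsf13b, Vpreb3 and Faim3, where it lies to the right.

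The B-cell-restricted genes were lower by a larger median than the shared ones, and both groups spread widely. Among the 18 restricted genes measured in both cultures, 14 were at least 2-fold lower and 1 higher, with a median of -1.63 (3.08-fold lower) and a range of -5.03 to 1.33. Among the 13 shared genes, 6 were at least 2-fold lower and none higher, with a median of -0.96 (1.95-fold lower) and a range of -3.88 to 0.16. The ranges overlap, and the 2nd lowest difference of the 31 belonged to a shared gene, Cd40. Summed levels, in multiples of the 75th percentile of each array, did not show the larger drop in the restricted group. Over the 22 restricted genes the sum was 42.2 in the co-culture and 84.7 in the naive-only culture, 2.01-fold lower. Over the 16 shared genes it was 27.5 in the co-culture and 58.2 in the naive-only culture, 2.11-fold lower. The restricted sum leans on a few bright genes. Faim3 and Tnfrsf13b had the highest co-culture levels of the restricted group (3.75 and 3.62 in log2 units), and both were higher in the co-culture. Sums without them were not made, so the restricted sum does not describe the group's other genes. Counting the genes with only a bound at that bound, and Blk at its plain difference, gave medians of -1.68 over 21 restricted genes and -1.11 over 14 shared genes, with 17 and 7 genes at least 2-fold lower. The groups were drawn up with earlier results of these data known. Moving Faim3, Spib, Tnfrsf13b and Igj, which other cells also use, to the shared group left the medians at -1.63 and -0.96. That move could not have changed them, so it is no check on the grouping. Spib (-3.46) and Igj (-3.20) lie below both medians, and Tnfrsf13b (0.61) and Faim3 (1.33) above both.

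**Figure D2:**
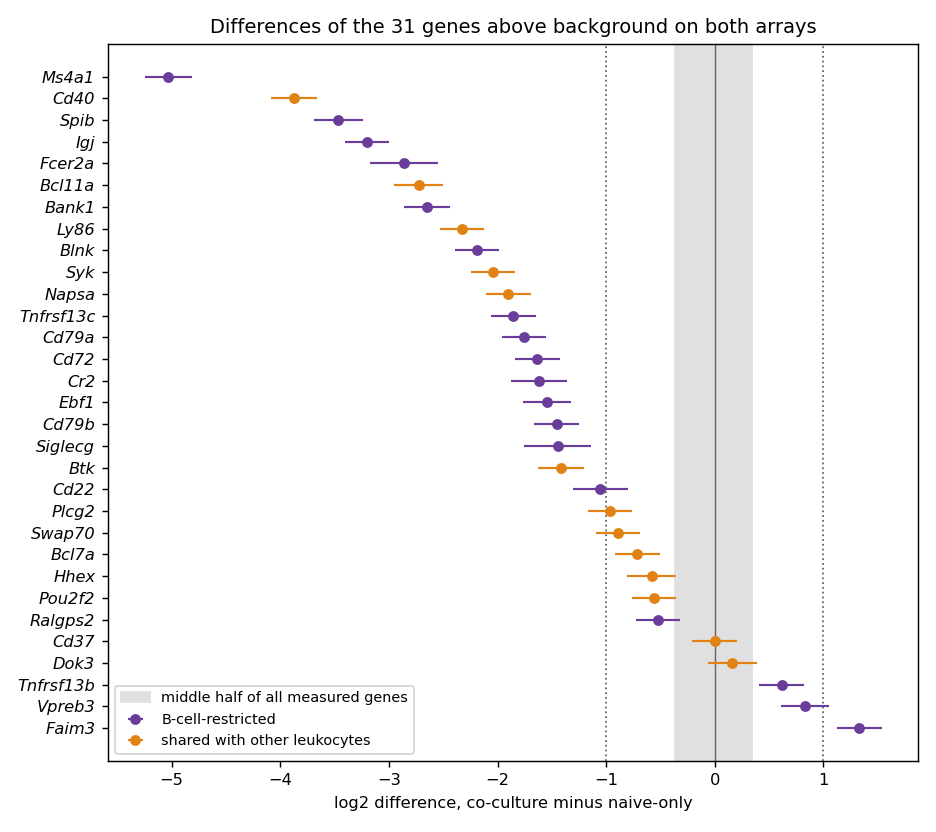
Log2 difference (co-culture minus naive-only) of the 31 genes above background on both arrays, ordered from lowest to highest, with bars for the scanner software's technical error. Dotted lines mark 2-fold, the grey band is the interquartile range of all measured genes, and Ms4a1 (-5.03) and Faim3 (1.33) stand at the ends.

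In the order of the differences, few gaps between neighbours were larger than the technical error. The ± values below are technical errors from the scanner software's error model, combined over both arrays, and leave out any variation between cultures. Of the 30 gaps between neighbours in the order, 7 were larger than the combined error of the 2 genes. They lay after Ms4a1, Cd40, Bank1, Btk, Ralgps2, Dok3 and Vpreb3, and the genes between these steps do not differ from their neighbours beyond that error. Sorting many genes by itself makes gaps between neighbours small. The count of steps therefore does not show whether genes further apart in the order share a ratio.

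Genes with several probes gave similar differences at each. Among the 8 genes with at least 2 probes measured on both arrays, 7 had the same sign at each probe, and the exception was Cd37, at -0.00 and 0.03. The median gap between probes of a gene was 0.12 and the widest 0.62, for Tnfrsf13c. With normexp, a background correction described below, some gaps were wider, as for Tnfrsf13c (-1.67 and -0.67). Others were not, as for Bank1 (-2.10 and -2.09). Ralgps2, which encodes an exchange factor for Ral GTPases, was printed in 10 spots and so shows the noise within an array. Its spots ranged from 439 to 508 (median 486) in the co-culture and from 656 to 723 (median 682) in the naive-only culture. The spots of the cultures did not overlap although the difference was only -0.52 ± 0.20, and the SD of log2 signal over spots was 0.063 in the co-culture and 0.045 in the naive-only culture.

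The probes are 60 bases long. Most are given as a continuous interval on mm9, the build of the scanner files, and for 5 of those behind the values below the interval is longer than the probe, as for a probe that joins exons. Their letters do not stand side by side in the genome, so they are shown here. They belong to Blk, a kinase of the antigen receptor (chr14:63997333-63998470, minus strand), Napsa, an aspartic protease (chr7:51840710-51841119, plus strand), Siglecg, an inhibitory lectin (chr7:50668051-50673194, plus strand), and the 2nd probes of Cd79a (chr7:25684357-25684614, plus strand) and Pou2f2 (chr7:25878678-25879840, minus strand).
Blk: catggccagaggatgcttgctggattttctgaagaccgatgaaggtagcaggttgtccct
Napsa: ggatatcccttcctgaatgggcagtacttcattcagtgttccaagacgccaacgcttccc
Siglecg: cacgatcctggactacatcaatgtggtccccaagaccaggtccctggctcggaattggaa
Cd79a: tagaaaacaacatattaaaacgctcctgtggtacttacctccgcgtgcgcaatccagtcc
Pou2f2: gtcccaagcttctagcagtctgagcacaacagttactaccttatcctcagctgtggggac

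All 5 of these probes gave a lower signal in the co-culture. Blk had 21.8 in the co-culture, not well above background, and 127 in the naive-only culture, 5.86-fold lower on these signals. That fold is the plain difference (-2.55 ± 0.41) and not a lower limit. The co-culture level of Blk (-3.79) was above the lowest level called above background on that array (-3.90). With normexp, a model-based background correction of the raw signals run with an added offset of 50, which itself makes folds of dim signals smaller, Blk was 2.22-fold lower. The 2nd Cd79a probe had 33.4 in the co-culture and 116 in the naive-only culture, a difference of -1.80, against -1.76 for the gene's brighter probe. With normexp these were -0.88 and -1.63, so the dimmer probe was inside 2-fold. The 2nd Pou2f2 probe differed by -0.59 and the brighter one by -0.56.

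Both signalling chains of the antigen receptor were lower in the co-culture by a similar amount. Cd79a (probe at chr7:25686823-25686882) had a signal of 368 in the co-culture and 1237 in the naive-only culture, a difference of -1.76 ± 0.20 or 3.38-fold lower. Cd79b (chr11:106172780-106172839) had 1568 in the co-culture and 4274 in the naive-only culture, a difference of -1.46 ± 0.20 or 2.74-fold lower. The gap between them, Cd79a minus Cd79b, was -0.30 with a combined error of 0.29.

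Ms4a1, which encodes the B cell surface protein CD20, had a difference far below those of the receptor chains. Its signal (chr19:11325367-11325426) was 106 in the co-culture and 3438 in the naive-only culture, a difference of -5.03 ± 0.22, or 32.7-fold lower (20.9-fold with normexp). The gap, Ms4a1 minus Cd79b, was -3.58 with a combined error of 0.30, and Ms4a1 minus Cd79a was -3.27 with the same combined error. The genes of the receptor and of the B cell surface thus did not share a common ratio between the arrays within the technical error.

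The complement and immunoglobulin receptors were lower with 1 exception. Cr2, the complement receptor of the B cell coreceptor, had 47.5 in the co-culture and 145 in the naive-only culture (-1.62 ± 0.26, 3.06-fold lower), and with normexp it was inside 2-fold at 1.88-fold lower. Its 2nd probe was above background on the naive-only array alone. Fcer2a, the low-affinity IgE receptor CD23, had 28.0 in the co-culture and 202 in the naive-only culture (-2.86 ± 0.31, 7.26-fold lower, or 2.90-fold with normexp). Fcrla, an Fc receptor-like protein kept inside the cell, had 6.34 in the co-culture, not well above background, and 221 in the naive-only culture, at least 11.0-fold lower. Fcrl1, a surface protein of the same family, had 4.46 in the co-culture, not well above background, and 64.5 in the naive-only culture, at least 3.21-fold lower. With normexp Fcrla was 4.25-fold and Fcrl1 2.04-fold lower, both under these bounds. Each such bound, which holds for the processed signal only, sets the naive-only level against the higher of the gene's own level and the lowest level called above background on the co-culture array.

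Faim3 stood opposite to these. It encodes a receptor for IgM, and its signal (chr1:132777256-132777315) was 4040 in the co-culture and 1594 in the naive-only culture, a difference of 1.33 ± 0.20 or 2.52-fold higher. Vpreb3, which encodes a protein that binds immunoglobulin chains in B cell precursors, had 164 in the co-culture and 91.4 in the naive-only culture (0.83 ± 0.22), within 2-fold. Cd37, a tetraspanin of leukocytes, had 2974 in the co-culture and 2956 in the naive-only culture, a difference of -0.00 ± 0.20.

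Igj encodes the joining chain of polymeric IgM and IgA and is used above all by antibody-secreting cells. Its signal was 278 in the co-culture and 2543 in the naive-only culture (-3.20 ± 0.21, or 9.21-fold lower). Of the 7 plasma cell markers measured in both cultures, 1 was at least 2-fold lower (Mzb1, -1.46) and 3 were at least 2-fold higher (Prdm1 at 1.84, Xbp1 at 1.15 and Creb3l2 at 2.58), for a median of 0.12. Sdc1, the plasma cell surface marker, differed by -0.83, and Tnfrsf17 was above background on neither array. The list thus held differences of both signs, and which cells its transcripts came from was not tested.

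The 3 inhibitory receptors were each at least 2-fold lower, with a median of -1.45 (2.73-fold lower). Cd72, a C-type lectin, had 224 in the co-culture and 690 in the naive-only culture (-1.63 ± 0.21). Siglecg had 33.1 in the co-culture and 89.7 in the naive-only culture (-1.45 ± 0.31). Cd22, another lectin for sialic acid, had 52.0 in the co-culture and 107.1 in the naive-only culture, a difference of -1.05 ± 0.25 that is within its error of 2-fold. With normexp, Siglecg was 1.55-fold and Cd22 1.49-fold lower, both inside 2-fold.

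Among kinases, adaptors and effectors next to the receptor, Bank1, Blnk and Syk had the lowest differences of the genes measured on both arrays, and Blk, shown above, was not well above background in the co-culture. Bank1, a scaffold for LYN, had 99.3 in the co-culture and 617 in the naive-only culture (-2.65 ± 0.21), and its 2nd probe was at -2.92 (-2.09 with normexp). Blnk, the adaptor between SYK and BTK, had 929 in the co-culture and 4210 in the naive-only culture (-2.19 ± 0.20, 4.56-fold lower). Syk, the kinase that docks on the receptor chains, had 340 in the co-culture and 1392 in the naive-only culture (-2.04 ± 0.20, 4.12-fold lower). Its other probe was above background on neither array. Of the 8 genes of this role measured in both cultures, 4 were at least 2-fold lower and none higher, with a median of -1.19.

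Btk, the kinase downstream of SYK, had 156 in the co-culture and 413 in the naive-only culture (-1.42 ± 0.21, 2.67-fold lower). Blnk lay below Btk by a gap (Blnk minus Btk) of -0.77 with a combined error of 0.29. Plcg2, the phospholipase that BTK activates, had 1906 in the co-culture and 3692 in the naive-only culture (-0.96 ± 0.20), just inside 2-fold. Swap70, an exchange factor for Rac, was at -0.89, and Dok3, an adaptor that damps receptor signals, at 0.16 ± 0.23. Along the chain SYK, BLNK, BTK and PLCG2 the differences of the genes were -2.04, -2.19, -1.42 and -0.96, and no trend along it was tested.

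Besides Blk, 2 members of this role were too dim to measure in the co-culture. Lyn, the Src-family kinase shared by B and myeloid cells, had 4.02 in the co-culture, not well above background, and 48.1 in the naive-only culture, at least 2.40-fold lower (1.81-fold with normexp). Pik3ap1, the adaptor BCAP that recruits phosphoinositide 3-kinase, had 8.92 in the co-culture and 16.8 in the naive-only culture, both not well above background, so no fold is given.

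Receptors for survival, help and microbial signals held both a large negative difference and a small positive one. Cd40, the receptor for T cell help, which dendritic cells and macrophages also carry, had 133 in the co-culture and 1939 in the naive-only culture (chr2:164897085-164897144), a difference of -3.88 ± 0.21 or 14.7-fold lower. It was the lowest of the shared genes measured on both arrays, and lay below Syk by a gap (Cd40 minus Syk) of -1.83 with a combined error of 0.29. Ly86, which encodes the partner MD-1 of the Toll-like receptor homologue CD180, had 463 in the co-culture and 2313 in the naive-only culture (-2.33 ± 0.20, 5.02-fold lower). Cd180 itself had 4.42 in the co-culture and 6.61 in the naive-only culture, both not well above background.

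The paired receptors for the survival factor BAFF went apart. Tnfrsf13c, the BAFF receptor (chr15:82052203-82052262), had 388 in the co-culture and 1392 in the naive-only culture (-1.85 ± 0.20, 3.62-fold lower), and its 2nd probe was at -1.23 (-0.67 with normexp). Tnfrsf13b, which encodes TACI (chr11:60962770-60962829), had 3699 in the co-culture and 2400 in the naive-only culture (0.61 ± 0.20), and its 2nd probe was at 0.35. The gap, Tnfrsf13c minus Tnfrsf13b, was -2.47 with a combined error of 0.29. A dim 3rd probe of Tnfrsf13b had 20.1 in the co-culture, not well above background, and 24.9 in the naive-only culture.

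**Figure D3:**
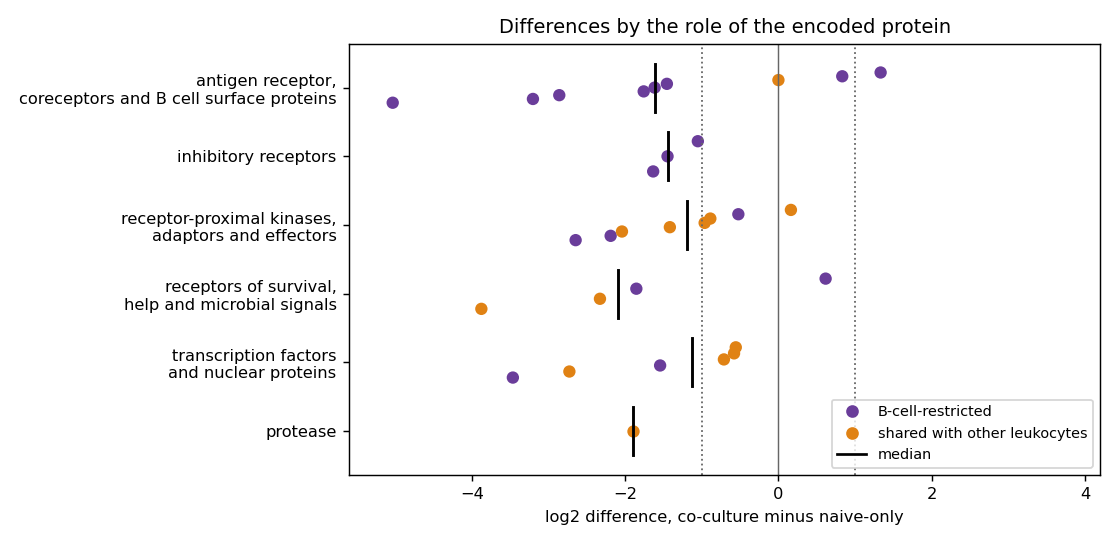
Log2 difference (co-culture minus naive-only) of the 31 genes above background on both arrays, placed by the role of the encoded protein, with B-cell-restricted genes in purple, shared genes in orange and a black bar for the median of each role. Medians run from -2.09 for receptors of survival, help and microbial signals to -1.13 for transcription factors and nuclear proteins, and dotted lines mark 2-fold.

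Of the 6 measured transcription factors and nuclear proteins, 3 were at least 2-fold lower and 3 lay between -0.71 and -0.56. Spib, an Ets factor of B cells and plasmacytoid dendritic cells (chr7:51781392-51781451), had 85.0 in the co-culture and 933 in the naive-only culture (-3.46 ± 0.22, 11.0-fold lower, or 6.68-fold with normexp). Bcl11a, a zinc finger factor needed for B cell development, had 75.8 in the co-culture and 499 in the naive-only culture (-2.73 ± 0.23, 6.62-fold lower, or 3.88-fold with normexp), with its 2nd probe at -2.79 (-1.46 with normexp). Ebf1, a founding factor of the B lineage, had 98.3 in the co-culture and 285 in the naive-only culture (-1.54 ± 0.22, 2.92-fold lower).

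Pax5, which keeps B cells committed, was near the detection limit. Its signal was 4.18 in the co-culture, not well above background, and 19.6 in the naive-only culture, and no fold is given because its naive-only level leaves no bound above 1. The genes within 2-fold in this role were Pou2f2, the octamer-binding factor Oct-2 (446 in the co-culture and 652 in the naive-only culture), Hhex, a homeobox factor (80.9 in the co-culture and 120 in the naive-only culture), and Bcl7a, a subunit of chromatin remodelling complexes (157 in the co-culture and 255 in the naive-only culture). Their differences were -0.56, -0.58 and -0.71, each below the lower quartile of all measured genes (-0.37). Napsa, the only protease of the set, had 214 in the co-culture and 792 in the naive-only culture (-1.90 ± 0.21, 3.73-fold lower).

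The promoters of the set were searched on both strands for motifs of factors that 3 of its members encode, Pou2f2, Ebf1 and Spib. Promoters are RefSeq windows on GRCm38.p6 of 250 bases before to 50 after a gene's start, and 31 of the 38 genes matched 38 windows. The octamer ATTTGCAT, bound by the product of Pou2f2, was in 2 of the 38 windows (5.26%), against 1.74% of all 32851 windows. The motif CCCNNGGGA of EBF factors was in 1 (2.63%), against 6.56%, and the purine-box core GAGGAA of Ets factors such as SPIB in 13 (34.2%), against 28.3%. The windows with the octamer and the EBF motif are shown with these motifs in capitals, since they belong to genes with differences of both signs: Blnk (chr19:40994172-40994471, minus strand) at -2.19, Vpreb3 (chr10:75948050-75948349, plus strand) at 0.83 and Cd22 (chr7:30878979-30879278, minus strand) at -1.05.
Blnk: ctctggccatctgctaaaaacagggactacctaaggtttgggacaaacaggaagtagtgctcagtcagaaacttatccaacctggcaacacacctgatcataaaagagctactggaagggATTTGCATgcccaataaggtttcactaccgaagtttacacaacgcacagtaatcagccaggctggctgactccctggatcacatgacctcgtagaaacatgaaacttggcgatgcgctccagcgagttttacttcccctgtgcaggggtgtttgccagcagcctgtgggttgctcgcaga
Vpreb3: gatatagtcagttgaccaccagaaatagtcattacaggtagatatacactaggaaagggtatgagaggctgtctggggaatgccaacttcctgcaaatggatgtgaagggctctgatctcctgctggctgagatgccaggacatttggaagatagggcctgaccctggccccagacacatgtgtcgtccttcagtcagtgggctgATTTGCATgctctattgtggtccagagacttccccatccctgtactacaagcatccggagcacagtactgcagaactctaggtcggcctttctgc
Cd22: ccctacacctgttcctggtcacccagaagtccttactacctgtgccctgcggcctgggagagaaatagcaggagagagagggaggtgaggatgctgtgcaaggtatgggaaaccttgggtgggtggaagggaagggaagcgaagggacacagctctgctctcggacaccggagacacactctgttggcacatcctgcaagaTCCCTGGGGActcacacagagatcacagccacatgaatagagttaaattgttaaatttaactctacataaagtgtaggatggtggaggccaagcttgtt

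The octamer starts 130 bases before the gene start in Blnk and 45 bases before it in Vpreb3. In Cd22 the EBF motif reads on both strands from overlapping positions, 49 and 48 bases before the start. A match is a description of letters, and no binding was measured here.

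Other B cell receptor pathway genes, apart from the 38, had a median near that of all genes. Of 28 such genes 26 were measured in both cultures, with 4 at least 2-fold lower, 1 higher and a median of -0.16. Among those lower were Rel, an NF-κB subunit (-2.15), and the inhibitory receptor genes Pirb (-2.11) and Fcgr2b (-2.06). Rel was dim, with 25.9 in the co-culture and 114 in the naive-only culture. Folds of signals this dim depend on the background correction, as for Fcer2a above. The interferon-induced gene Ifitm1 was at 3.66. Rasgrp3, an exchange factor for Ras, was above background on the naive-only array alone, at least 9.89-fold lower, and was named after its value was seen.

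Other B-lineage genes were lower more like the 38. Of 23 measured on both arrays of 24, 13 were at least 2-fold lower and none higher, with a median of -1.04. Bach2, a repressor of plasma cell differentiation (-2.45), Pou2af1, the coactivator of Oct factors (-2.44), Fcgr2b (-2.06) and Pld4 (-1.86) were the lowest. Pou2af1 had a signal of 666 in the co-culture and 3580 in the naive-only culture, and Pld4 was dim, with 28.4 in the co-culture and 103 in the naive-only culture. The factor gene Mef2c was above background on the naive-only array alone, at least 1.96-fold lower. Some genes stand in more than 1 list, as Fcgr2b does here and in the pathway list, and count in each.

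Markers of other antigen-presenting cells were also lower in the co-culture in part, and which cells the RNA came from was not tested. Of 9 MHC class II genes measured, 6 were at least 2-fold lower (median -1.35), and their summed level, in multiples of the 75th percentile of that array, was 53.4 in the co-culture and 216 in the naive-only culture. H2-Aa, a class II chain, was at -4.00, and Ciita, the class II transactivator, was above background on the naive-only array alone. Of 9 measured dendritic cell markers, 4 were at least 2-fold lower (Fscn1, -4.56, Flt3, -2.87, Tcf4, -1.53, and Cd83, -1.25) and 1 higher (Batf3, 3.51). Their median was -0.86, and their summed level was 243 in the co-culture and 245 in the naive-only culture. That sum rests on few probes: Siglech had a signal of 45263 in the co-culture and 48922 in the naive-only culture, and Batf3 had 16718 in the co-culture and 1463 in the naive-only culture. The 8 measured markers other than Batf3 were all negative, and of these Flt3 was dim, with 27.0 in the co-culture and 196 in the naive-only culture. Cd83 is also in the list of other B-lineage genes, so its value was counted in both lists. Xcr1, Clec9a and Cd209a were above background on neither array, and Itgax, the dendritic cell integrin CD11c, was at -0.46.

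Of 16 measured monocyte, macrophage and neutrophil markers, 6 were at least 2-fold lower and none higher (median -0.50, summed level 156 in the co-culture and 145 in the naive-only culture). Those lower were Mpeg1 (-2.75), Cd14 (-1.71), Tyrobp (-1.50), Sirpa (-1.35), Fcer1g (-1.25) and Lyz2, and most of the sum came from Csf3r (signal 36918 in the co-culture and 31141 in the naive-only culture). The defining genes of these cells were Itgam at 0.37, Csf1r at -0.06 and Lyz2 at -1.12, and Fcgr1 and Cd33 were above background on neither array. Of 19 T cell markers, 3 were at least 2-fold lower (Trat1, -3.06, Tcf7, -1.50, and Cd6, -1.16) and 2 higher (Gata3, 1.33, and Skap1, 1.06), with a median of 0.25 and a summed level of 1886 in the co-culture and 1712 in the naive-only culture. Of 4 measured natural killer and CD8 T cell markers 2 were at least 2-fold higher (Nkg7, 2.30, and Gzma, 1.80), and Cd8a was at 0.52. The summed level of that list was 112 in the co-culture and 29.8 in the naive-only culture, with Ncr1 and Klra8 above background on the naive-only array alone and Klrd1 and Klrk1 on the co-culture array alone (at least 4.62-fold and 2.67-fold higher). Most of that sum came from Gzma (signal 22167 in the co-culture and 6336 in the naive-only culture) and Nkg7 (11111 in the co-culture and 2244 in the naive-only culture). Of 7 erythroid and platelet markers on the array 2 were measured, Hba-a1 at -1.09 and Pf4 at 1.14. Genes named in these lists of other cell types were chosen after their values were seen, apart from the defining markers of each cell type.

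**Figure D4:**
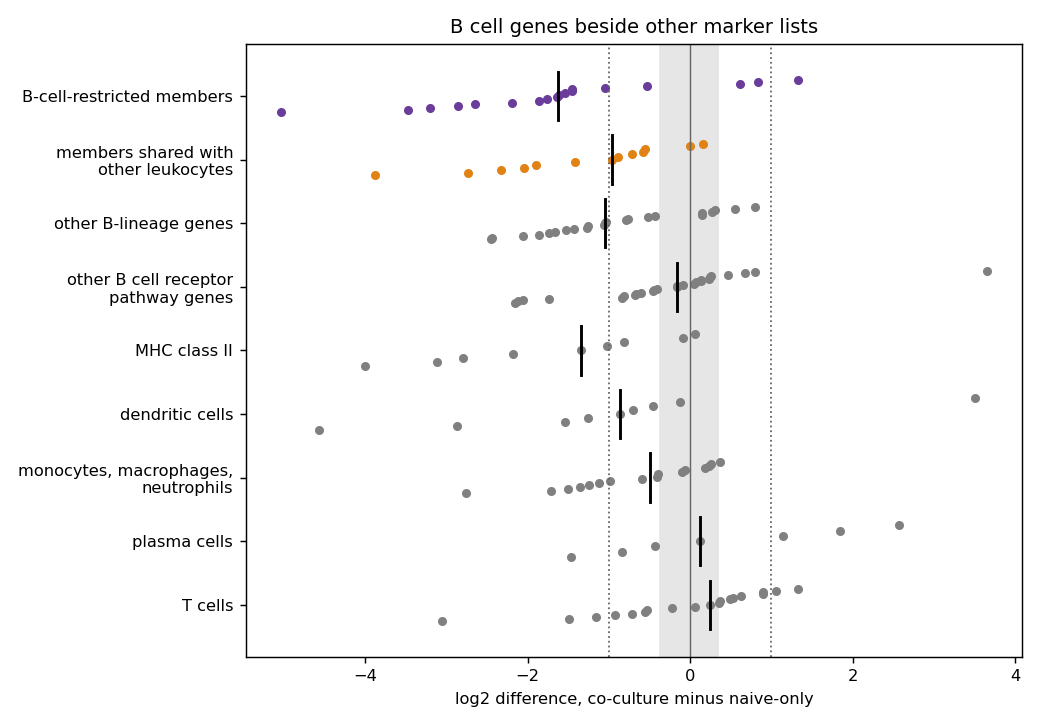
Log2 difference (co-culture minus naive-only) of each gene above background on both arrays, in the B-cell-restricted and shared groups and in 7 lists of other genes, with a black bar for each median and dotted lines at 2-fold. The medians run from -1.63 for the B-cell-restricted genes to 0.25 for T cell markers among the lists drawn, which leave out the natural killer and CD8 T cell list (median 1.16 over 4 genes) and the erythroid and platelet list, and the grey band is the interquartile range of all measured genes.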

How the data were processed

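RNA of CD4+ T cells sorted from 1 co-culture and 1 naive-only culture went through the Ovation RNA Amplification System V2 and Cy3 labelling, per the labels' protocols, and amplification can alter relative transcript levels. The deposited values are spot intensity, background-subtracted and with an error from the software's model, extracted by Agilent Feature Extraction 10.7.1.1 per the file headers (9.5.1.1 per the submitters' processing notes). The authors' deposited table of normalized intensity served as an alternative.

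Titles gave the groups, 1 slide carried both arrays, and no column was left unmatched (0). The log2 signal, averaged over a probe's spots, was centred on the 75th percentile of that array's noncontrol probes (301.3 intensity units in the co-culture and 299.4 in the naive-only culture). Of 55681 probes, 45.1% were well above background in the co-culture and 46.2% in the naive-only culture, and none was saturated. The number of arrays limits the precision. The probe with the highest mean level stood for its gene, and genes called above background on both arrays were counted at 2-fold. The median technical error of a difference was 0.20.

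All 38 genes are named, with the defining markers of other cell types, and in the B cell receptor pathway and B-lineage lists up to 4 genes past 2-fold, largest first, and a few genes of these lists are not reported here. The members, lists and groups were chosen with earlier results of these data known. Symbols were matched by accession to a RefSeq table (all 38 genes, of which 2 had a newer symbol). Coordinates of probes are on mm9 per the file headers, and no exon annotation of mm9 was used here. Alternatives covered background correction, scaling, dim genes, marked spots and the choice of probe. Python 3.11.15, numpy 2.4.6, pandas 2.3.3, R 4.3.3 and limma 3.58.1 were used, and counting was tested on simulated data.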

Additional observations from a re-analysis of the deposited data

How the results depend on the processing

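Of the 21 genes past 2-fold, all 21 stayed so under 3 other scalings, quantile normalization, the authors' deposited table, the median over probes, marked spots left out and no filter on dim genes. Under normexp with an offset of 50, 18 stayed, without Cr2, Cd22 and Siglecg, and 6 of 31 folds shrank by over 1.5 times. The offset by itself shrinks folds of dim signals, and its part was not separated from that of the background model. Cd37, at a difference of about 0, changed sign under 7 alternatives, and no other gene did. The B-cell-restricted median ran from -1.81 to -1.47. Keeping only genes above level 0, so that fewer genes entered, gave medians of -1.70 over 10 B-cell-restricted genes and -1.43 over 8 shared genes. These lay closer together than the main medians of -1.63 and -0.96. At least 2-fold lower were 7 of the 10 B-cell-restricted genes, and over all genes 323 were lower and 617 higher. Without a filter on dim genes, so that more genes entered, 1781 genes in all were lower and 2272 higher, against 675 and 1074. Under normexp 443 genes in all were lower, and the cause was not tested. Counting Faim3, Spib, Tnfrsf13b and Igj as shared, an alternative chosen after seeing the data, gave 12 restricted and 8 shared genes at least 2-fold lower. No paired analysis was possible because each culture had 1 array. Genes near the background on the co-culture array have only bounds, apart from Blk, whose fold rests on a co-culture signal not well above background.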
